A study of Arabidopsis thaliana with 12 samples.

Results

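The transcripts described here are those of PRK (AT1G32060, phosphoribulokinase), ATSPS4F (AT4G10120, a sucrose phosphate synthase) and AT3G47650, which encodes a chloroplast protein with a DnaJ-type zinc-finger domain related to BSD2. Their probes were taken as those that list exactly 1 gene in the platform's probe table, which gave 1 probe per gene, 3 of the 692 single-gene probes, which name 691 genes, and of 3439 probes in all. The measurements were array intensities of total RNA of Arabidopsis thaliana from 6 samples of the psak mutant in ecotype Columbia 0, which lacks PSI-K, and 6 wild-type samples (WT) of the same ecotype. The labels used here name neither the tissue, the age and the growth conditions nor the kind of psak allele, so no tissue marker was checked. PSI-K is a membrane subunit of photosystem I at the edge that binds the light-harvesting antenna. The comparison asks whether these transcripts differ between plants with and without it.

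Photosystem I delivers the electrons for NADPH, and NADPH and ATP drive the Calvin cycle in the chloroplast stroma. Phosphoribulokinase spends ATP to make ribulose bisphosphate, the molecule to which Rubisco adds carbon dioxide, and it is switched on in the light through thioredoxin. Triose phosphates that leave the chloroplast are turned into sucrose in the cytosol, where sucrose phosphate synthase joins UDP-glucose and fructose phosphate in the step before a phosphatase releases sucrose. BSD2, known from maize, is a small stromal protein needed for the accumulation of Rubisco.

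Intensities were deposited on a linear scale from 0 to 100, on which the 3 probes lay between 0.462 and 2.11 in all 12 samples. None of the 3 was at 0 in any sample and none was in the dimmest 25% of the probes. The summed intensity per sample was 2968 to 3416 in psak and 2967 to 3460 in WT. Samples psak 5 and psak 6 stood apart, with 18.1% and 19.4% of the probes at 0 against 13.0% to 13.6% in the other psak samples and 13.8% to 16.5% in WT. Their log2 medians were -2.15 and -2.20, against -1.39 to -1.25 in the other psak samples and -1.66 to -1.28 in WT. Samples with neighbouring numbers (1 and 2, 3 and 4, 5 and 6) were alike, with a consensus correlation of 0.590 within such number pairs. Differences below are psak minus WT on the log2 scale after quantile normalization, tested with limma and adjusted with the Benjamini-Hochberg method over 2993 probes, and an adjusted p under 0.05 is called a pass. The number of samples limits the precision of every value.

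The AT3G47650 transcript was higher in psak, by 1.15 to 1.37 on the normalized log2 scale in the 3 number pairs. The ATSPS4F transcript was higher in psak by a smaller amount, in a comparison that passed in some fits and not in others. The PRK transcript did not pass in any fit, and the direction of its difference was not the same in the 3 number pairs. Of the 3 genes, 2 passed as higher in the test of 12 samples, against 8.12% of all tested probes that passed as higher and 14.8% that passed in either direction. The 3 genes were chosen with earlier results of these data known, so this count is no test of them as a group.

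**Figure D1:**
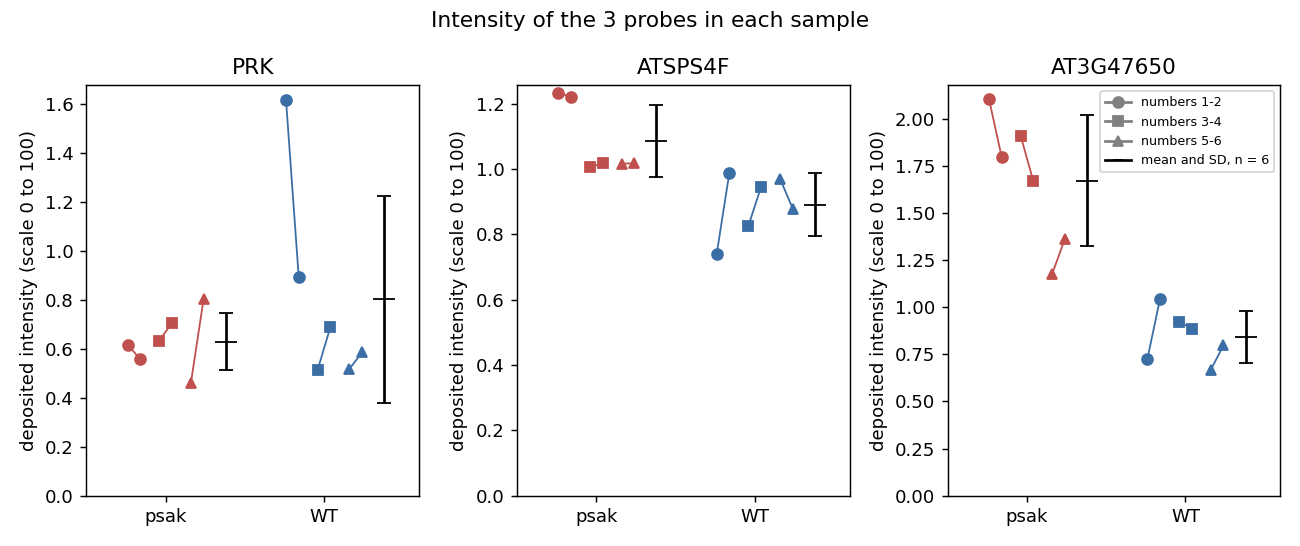
Deposited intensity (linear scale, 0 to 100) of the probes for PRK, ATSPS4F and AT3G47650 in 6 psak samples (red, left) and 6 WT samples (blue, right). Lines join the 2 samples of a number pair, and black bars are the mean and SD of 6 samples. For ATSPS4F and AT3G47650 every psak sample lies above every WT sample, with a gap of 0.0172 and 0.134. The same holds for 3.82% of the 2358 probes above 0 in all samples. For PRK the WT 1 sample stands alone at 1.62.

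PRK encodes the enzyme that regenerates the carbon dioxide acceptor of the Calvin cycle. Its transcript is usually abundant in leaves, and its probe was far below the top of a scale that ends at 100. Even so, its lowest log2 intensity as deposited, -1.12 in psak 5, was above the log2 medians of all samples, -2.20 to -1.25. The tissue is not named and the listed name was not checked against a probe sequence, so whether the probe reads PRK was not tested. The values below are those of the probe listed for PRK. Its intensity in psak had a lowest value of 0.462, a median of 0.626 and a highest value of 0.804, against 0.516, 0.638 and 1.62 in WT. The groups overlapped, with 5 of 6 psak samples inside the range of WT, and the medians were close. The highest WT values were those of samples 1 and 2, at 1.62 and 0.896, and the other 4 WT samples lay between 0.516 and 0.690. The means were 0.630 ± 0.118 in psak and 0.804 ± 0.423 in WT (SD, n = 6 each). The log2 difference was -0.04 ± 0.28 (SE; limma adjusted p = 0.939), with a 95% confidence interval of -0.66 to 0.57. On a fold scale this interval ran from 0.632 to 1.49, so a difference of this size in either direction could not be told from none with these samples.

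The PRK difference changed sign between number pairs, and the test of a dependence on them passed in some fits only. In numbers 1 and 2 the mean intensity was 0.588 in psak and 1.26 in WT, and the log2 difference was -1.05. In numbers 3 and 4 the means were 0.670 in psak and 0.603 in WT, with a log2 difference of 0.22. In numbers 5 and 6 they were 0.633 in psak and 0.552 in WT, with a log2 difference of 0.70 after normalization and 0.14 with the values as deposited. With the values as deposited, only in numbers 1 and 2 did the psak and WT intensities not overlap, and there psak was lower. After normalization those of numbers 5 and 6 did not overlap either, with psak higher. Their normalized log2 values were -0.74 and -0.10 in psak and -1.22 and -1.02 in WT. An F test of the genotype by number-pair interaction, in which the 2 samples of a pair count as replicates, gave a limma adjusted p of 0.0488. Of 2757 probes in this test 23.1% passed, so such a dependence was common on the array. With no normalization it did not pass (limma adjusted p = 0.108), nor without WT 1 (0.0949). In all, 10 of 12 such fits with a single sample left out did not pass, so a dependence was not established. Without WT 1 the overall log2 difference of PRK was 0.17 ± 0.22 (limma adjusted p = 0.633), of the opposite sign.

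ATSPS4F encodes 1 of the sucrose phosphate synthases of Arabidopsis, which set the entry of carbon into sucrose. Its intensity in psak had a lowest value of 1.01, a median of 1.02 and a highest value of 1.23, against 0.740, 0.912 and 0.988 in WT. All 6 psak samples were above all 6 WT samples, though the gap between the lowest psak and the highest WT sample was only 0.0172. Of the 2358 probes above 0 in all samples, 3.82% had every psak intensity above every WT intensity, and 13.1% did not overlap in either direction. The psak samples 1 and 2 were the highest, at 1.23 and 1.22, while the other 4 lay between 1.01 and 1.02. The WT samples were spread more evenly, and WT 1 was the lowest. The means were 1.08 ± 0.110 in psak and 0.891 ± 0.0957 in WT (SD, n = 6 each), a ratio of 1.22.

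On the normalized log2 scale ATSPS4F rose by 0.53 ± 0.12 (SE; limma adjusted p = 0.0111), a 1.44-fold difference with a 95% confidence interval of 1.21 to 1.72. An exact two-sided permutation test over the 12 samples gave an unadjusted p of 0.00216, the smallest that 6 against 6 samples can give. Any probe whose groups do not overlap gets this p, so it adds nothing to the separation of the groups. The test also takes the samples as independent. The difference was 0.65 in numbers 1 and 2, 0.38 in numbers 3 and 4 and 0.55 in numbers 5 and 6, positive in each. The F test of the genotype by number-pair interaction did not pass for it (limma adjusted p = 0.594). In a fit that took each number pair of a genotype as a random block, the difference was 0.53 ± 0.17 and did not pass (limma adjusted p = 0.0934), where 3.31% of the probes passed as higher. With number pairs as a fixed block shared by the genotypes it was 0.53 ± 0.11 and passed (limma adjusted p = 0.00699), where 10.5% of the probes passed as higher. With no normalization of the deposited intensities the difference was 0.29 ± 0.14 and did not pass (limma adjusted p = 0.223), where 4.88% of the probes passed as higher.

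The size of the ATSPS4F difference moved with the scaling of the samples. With samples scaled to a common log2 median it was 0.39 ± 0.20 and did not pass (limma adjusted p = 0.235), while the interaction with number pair passed under that scaling (limma adjusted p = 0.0164). Before normalization the difference within numbers 5 and 6 was 0.14, against 0.55 after normalization, and psak 5 and psak 6 were the samples with the low medians. The median over all tested probes was -0.11 with the values as deposited and -0.0026 after quantile normalization. Without psak 5 and 6 the normalized difference was 0.53 ± 0.12 and passed (limma adjusted p = 0.00844), where 17.7% of the probes passed as higher.

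AT3G47650 encodes the chloroplast protein of the BSD2 type. Its intensity in psak had a lowest value of 1.18, a median of 1.74 and a highest value of 2.11, against 0.667, 0.843 and 1.05 in WT. All 6 psak samples were above all 6 WT samples, as was the case for 3.82% of the 2358 probes above 0 in all samples. The lowest psak values were those of samples 5 and 6, at 1.18 and 1.36, and samples 1 to 4 lay between 1.67 and 2.11. In WT, sample 2 was the highest at 1.05 and sample 5 the lowest at 0.667. The means were 1.67 ± 0.347 in psak and 0.841 ± 0.139 in WT (SD, n = 6 each), a ratio of 1.99.

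On the normalized log2 scale AT3G47650 rose by 1.27 ± 0.20 (SE; limma adjusted p = 0.00184), a 2.41-fold difference with a 95% confidence interval of 1.78 to 3.25. Within the number pairs the mean intensities were 1.95 in psak and 0.886 in WT for numbers 1 and 2, 1.79 in psak and 0.906 in WT for numbers 3 and 4, and 1.27 in psak and 0.733 in WT for numbers 5 and 6. The corresponding log2 differences were 1.37, 1.28 and 1.15, all in the same direction, and the F test of the interaction did not pass (limma adjusted p = 0.824). Both genotypes had their lowest mean in numbers 5 and 6. Across the pairs the normalized log2 means spanned 0.65 in psak and 0.53 in WT, each less than the difference between the genotypes.

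When each number pair of a genotype was a random block, the AT3G47650 difference of 1.27 ± 0.25 passed (limma adjusted p = 0.0142), as it did with number pairs as a fixed block (limma adjusted p = 0.000157). With no normalization it was 0.98 ± 0.19 (limma adjusted p = 0.00544), and without psak 5 and 6 it was 1.44 ± 0.17 (limma adjusted p = 0.000593). With the mean of each pair as 1 sample, 3 against 3, it did not pass (1.27 ± 0.29, limma adjusted p = 0.163), and 0.00% of 2965 probes passed in that fit, in which 465 had an unadjusted limma p under 0.05.

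**Figure D2:**
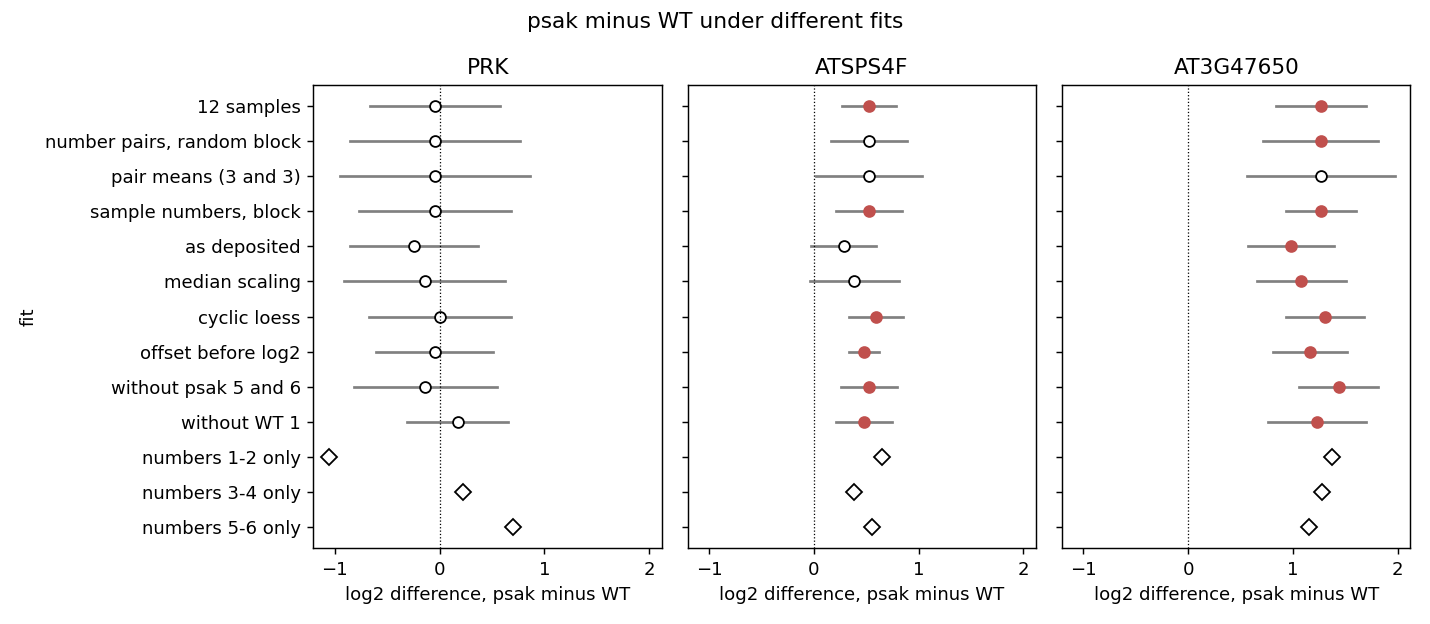
Log2 difference, psak minus WT (x axis), of PRK, ATSPS4F and AT3G47650 under 10 fits (circles, with 95% confidence intervals as grey lines) and within each number pair (diamonds, no interval). Filled circles mark a limma adjusted p under 0.05. AT3G47650 is above 0 throughout, between 0.98 and 1.44, ATSPS4F is above 0 with fewer filled circles, and PRK lies on both sides of 0.

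Few other genes of these pathways were measured by a probe with 1 gene. Of 63 loci listed for the Calvin cycle, for sucrose and starch synthesis, and for Rubisco assembly with chloroplast DnaJ zinc-finger proteins, single-gene probes covered the 3 transcripts above, SBPASE and Cpn60beta3, and another 6 probes list several genes with 1 of these loci among them. Of the Calvin cycle list 2 of 24 loci had such a probe, and neither passed in the test of 12 samples: PRK missed the threshold, and SBPASE, the sedoheptulose bisphosphatase of the cycle, is listed at 0 in all 12 samples and was not tested. Of the sucrose and starch list ATSPS4F was the single locus of 23 with such a probe. Of the assembly list 2 of 16 had one, of which AT3G47650 rose and Cpn60beta3 did not pass. Among single-gene probes, a search of names for 8 chaperone words found Cpn60beta3, Cpn60beta4 and CCS, of which 0 of 3 passed, and a search for 21 carbohydrate words added no gene. Of all tested probes 14.8% passed in either direction, so counts in lists this short are not set apart from the background. The median log2 difference of the 3 chaperone genes was that of Cpn60beta3, 0.27, against -0.0026 over all tested probes. The others were -0.41 for CCS and 0.62 for Cpn60beta4. With 3 genes of unlike direction, the median cannot show whether these genes shifted as a group.

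Cpn60beta3 and Cpn60beta4 are subunits of the chloroplast chaperonin, the folding machine that also serves the large subunit of Rubisco. The Cpn60beta3 intensity was 0.442 to 0.504 in psak samples 1 to 4 and 0.150 and 0.162 in psak 5 and 6, against 0.220 to 0.416 in WT. The Cpn60beta4 intensity was 0.427 to 0.599 in psak samples 1 to 4 and 0.124 and 0.114 in psak 5 and 6, against 0.150 to 0.320 in WT. For both, on the scale as deposited, psak samples 1 to 4 lay above all WT samples, and psak 5 and 6 below all of them. After normalization the lowest psak value of Cpn60beta4 was -2.36 on the log2 scale, above the lowest WT value of -2.56. The normalized log2 differences in numbers 1 and 2, 3 and 4, and 5 and 6 were 1.02, 0.91 and -0.09 for Cpn60beta4, and 0.74, 0.45 and -0.39 for Cpn60beta3. The log2 difference over the 12 samples was 0.27 ± 0.19 for Cpn60beta3 (limma adjusted p = 0.364) and 0.62 ± 0.30 for Cpn60beta4 (limma adjusted p = 0.192). Without psak 5 and 6 they were 0.48 ± 0.12 and 0.98 ± 0.20 (limma adjusted p = 0.0147 and 0.00582), in a fit where 17.7% of all probes passed as higher. The interaction with number pair passed for Cpn60beta3 (limma adjusted p = 0.00751) and not for Cpn60beta4 (0.0705), in a test that 23.1% of 2757 probes passed.

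The AT3G47650 values of psak 5 and 6 were also below those of the other psak samples, yet above all WT samples. The higher share of probes at 0 and the lower medians of psak 5 and 6 moved with these values, and their part in them was not tested. CCS, the copper chaperone of superoxide dismutase, had intensities of 0.0820 to 0.248 in psak and 0.101 to 0.721 in WT, with a log2 difference of -0.41 ± 0.41 (limma adjusted p = 0.534).

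The single-gene probes most like each of the 3 were sought by Pearson's correlation over the 12 samples, among 475 others above 0 in every sample. The samples, the normalization and, where genotypes differ, the genotype itself are shared by such values, so the correlations are a description. Of the 475 probes, 24 had an r over 0.8 with AT3G47650, 18 with ATSPS4F and 0 with PRK. Closest to AT3G47650 were AT1G32730, PSAN and AT3G06570, with r of 0.971, 0.951 and 0.928. With each genotype's mean removed, r was 0.837, 0.782 and 0.535. PSAN, a lumenal subunit of photosystem I, had an intensity of 6.85 ± 2.07 in psak and 2.97 ± 0.841 in WT (SD, n = 6 each).

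Closest to ATSPS4F were AT5G11650, AT3G26630 and AT1G32730, with r of 0.953, 0.918 and 0.915. With each genotype's mean removed, r was 0.643, 0.0378 and 0.475, so the likeness to AT3G26630 lay almost wholly in the step between the genotypes. The AT5G11650 intensity was 1.41 ± 0.112 in psak and 0.780 ± 0.130 in WT (SD, n = 6 each). AT1G32730 was among the closest of both transcripts, and its intensity was 2.57 ± 0.402 in psak and 1.17 ± 0.282 in WT (SD, n = 6 each).

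Closest to PRK were AT1G54500, AT3G06870 and AT3G58610, with r of 0.763, 0.737 and 0.629. With each genotype's mean removed, r was 0.874, 0.793 and 0.635. Without WT 1 and psak 6, the 2 samples farthest from the PRK median, r was 0.449, 0.596 and 0.273, so the likeness to AT1G54500 and AT3G58610 rested in large part on those samples. All 3, like PRK, had their highest WT intensity in WT 1, at 0.745, 0.106 and 1.28. For AT3G47650 and ATSPS4F, leaving out the 2 farthest samples left r at 0.911 or more for each of the named probes. The step between the genotypes stays in the samples that are left, so this does not test likeness within genotypes.

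**Figure D3:**
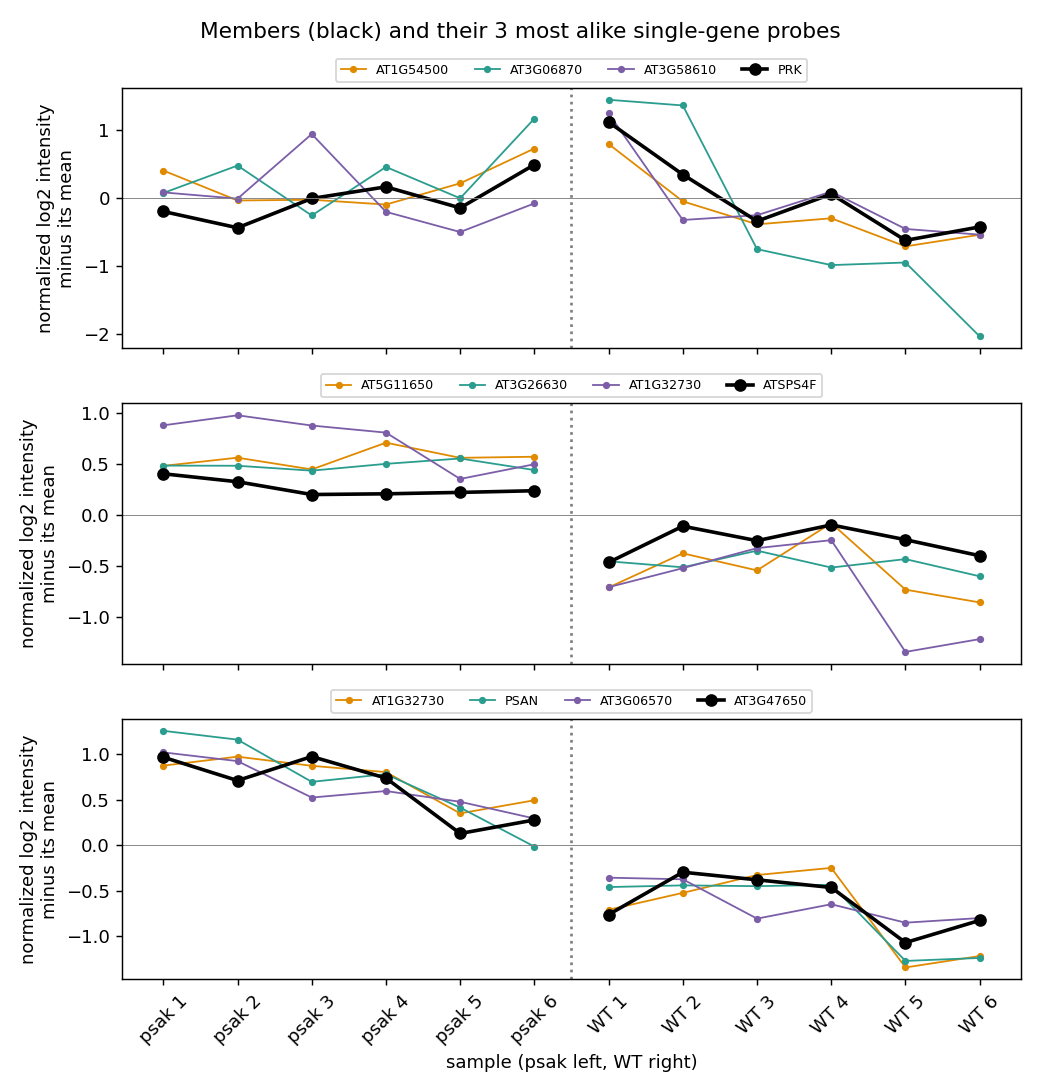
Normalized log2 intensity minus its mean over 12 samples (y axis) in 6 psak samples (left) and 6 WT samples (right), for PRK, ATSPS4F and AT3G47650 (black) and the 3 single-gene probes most correlated with each. Lines join samples of a genotype for legibility only. ATSPS4F and AT3G47650 and their closest probes step between the genotypes, while PRK and its closest probes are high in WT 1.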

How the data were processed

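Per probe and sample the authors deposited 1 intensity between 0 and 100. The steps behind it, and what a 0 stood for, are not described in the labels used here. Gene names come from the probe table of the platform and the RefSeq annotation of TAIR10.1, where 690 of 692 single-gene probes matched a locus. No name was checked against a probe sequence, and coordinates are left out since the array's build is not named.

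Zeros were set to missing, and the remaining intensities were log2 transformed and quantile normalized. Probes with 2 or more values per genotype entered a two-sided limma test (version 3.58.1, R 4.3.3; lmFit, then eBayes) of psak minus WT. The fits were tested on simulated data. Plots were made in Python 3.11.15 (matplotlib 3.10.9). Alternatives were other normalizations, an offset of 0.1, filters on dim or missing values, blocks or means of sample numbers, other variances and samples left out.

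The labels number the samples 1 to 6 without naming separate plants or cultures, so p-values measure only the spread between these samples, which may be technical. The 3 genes and the lists were chosen with earlier results of these data known. Named genes were the 3 genes, the 3 single-gene probes most correlated with each, and the list members that passed or, up to 3 a list, had the smallest p.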

Additional observations from a re-analysis of the deposited data

Results flagged for a closer look

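In 24 groups of 6 values (the 3 transcripts on 2 scales, 3 list genes and 3 sample measures, in each genotype), 1 sample lay far from the other 5 in 2 groups, the ratio of its distance from the next sample to the range of the group being above Dixon's critical value. Chance marks about 1 in 20 groups of independent values. For PRK in WT this was sample 1, with a ratio of 0.655 on the intensity scale, and on the normalized log2 scale the ratio was 0.444, below the critical value. For CCS in WT it was sample 2, at 0.721 against 0.101 to 0.201 in the other WT samples, with a ratio of 0.838. The ratio cannot mark 2 samples that stand apart together. For the log2 medians of psak it was 0.0530, although psak 5 and 6 lay below the other psak samples. The PRK difference between psak and WT differed between number pairs, at -1.05 in numbers 1 and 2, 0.22 in numbers 3 and 4 and 0.70 in numbers 5 and 6 (limma interaction F test, adjusted p = 0.0488). Of 2757 probes 23.1% passed this limma test. Without WT 1 its adjusted p for PRK was 0.0949.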

How the results depend on the processing

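AT3G47650 was higher in psak in all 24 tested alternatives and passed in 23; only with pair means did it not (1.27, limma adjusted p = 0.163). With single samples left out its log2 difference was 1.19 to 1.35. ATSPS4F was positive in all 24 and passed in 20; it did not with the values as deposited (0.29), samples scaled to a common log2 median (0.39), number pairs as a random block (0.53) or pair means (0.53), and within numbers 1-2 and 3-4 it was 0.65 and 0.38. With single samples left out it was 0.48 to 0.56. PRK passed in none of 24; its sign turned with cyclic loess (0.0050), and with single samples left out it was -0.18 to 0.17, positive without psak 2 (0.04), WT 1 (0.17) or WT 2 (0.02). Within numbers 1-2 and 5-6 it was -1.05 and 0.70.

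The interaction of PRK with number pair had a limma adjusted p of 0.108 with the values as deposited, 0.0515 with cyclic loess, 0.0542 with the offset and 0.0215 to 0.128 with single samples left out (chosen after seeing the data; 10 of 12 did not pass). That of ATSPS4F passed with samples scaled to a common log2 median (limma adjusted p = 0.0164) and under no other scaling or filter; with single samples left out it was 0.235 to 0.814, and that of AT3G47650 was 0.408 to 0.959. The cause of these changes was not tested.

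Probes called higher and lower numbered 243 and 201. They were 146 and 275 with the values as deposited, 141 and 125 with median scaling, 99 and 55 with the random block, 309 and 347 with number pairs as a fixed block, 524 and 423 without psak 5 and 6, and 0 and 0 with pair means, where limma had 465 probes at an unadjusted p under 0.05. With single samples left out they were 180 to 305 and 147 to 278.

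The labels do not say that the numbers pair samples, so the main fit had no block. Same-numbered samples of the genotypes deviated together weakly (r of 0.0798 to 0.239 over 2358 probes, numbers 1 and 6 under 0.1). Each psak sample still correlated best with the WT sample of its own number. Summed intensities were also alike by number, at 3359 and 3416 in psak 1 and 2 and 3460 and 3439 in WT 1 and 2. In numbers 3 and 4 they were 2968 and 3062 in psak and 2967 and 3019 in WT. A weak r therefore does not show that the numbers are unpaired. With sample numbers as a replicate block the log2 differences were 0.53 for ATSPS4F (limma adjusted p = 0.0394), 1.27 for AT3G47650 (0.00465) and -0.04 for PRK (0.937), with 216 probes called higher and 227 lower.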
